A study of Mus musculus with 6 samples.

Results

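Transcripts of 10 digestive enzymes and cofactors of the exocrine pancreas (Prss2, Amy2a5, Cpa1, Cpb1, Ctrb1, Cela2a, Cela3b, Pnlip, Clps and Cel) were followed in colon tissue with tumors from 6 mice. They were selected by gene symbol among the gene probes of the arrays, and the 10 genes were read by 13 probes, out of 37325 gene symbols and 56605 gene probes in all. The genes were picked with their values on these same arrays known, so how they differ between arrays and groups is a description, and the fit across all genes, given once below, supports nothing about them. All mice were male C57BL/6, aged 6 to 8 weeks at purchase, and all carried colitis-associated colon tumors raised with azoxymethane (AOM, 10 μg/g), a carcinogen, and dextran sodium sulfate (DSS, 2% in drinking water for 5 days), which injures the colon lining. The first group of 3 mice, labelled Rgnanomedicine and called RG@M-γ-CD here, was given regorafenib, a multikinase inhibitor, held in a mannose-modified γ-cyclodextrin, by mouth at a dose of 30 μg/g, which carried 10 μg/g of the drug. The second group of 3 mice was given phosphate-buffered saline (PBS) by mouth. Dosing ran for 21 days and was followed by 14 days without it, after which colons were taken and each mouse was measured on 1 one-color Agilent array. The tissue is labelled colon tumor, but it was colon tissue with tumors, so normal and tumor cells were measured together. In such bulk tissue, fewer cells of a type and less RNA per cell cannot be told apart.

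The exocrine pancreas is built of acinar cells, which make digestive enzymes, store many of them as inactive precursors in zymogen granules and release them through the pancreatic duct into the duodenum. Trypsin, once activated by enteropeptidase of the duodenal brush border, activates the other protease precursors. Acinar enzyme genes share control by the PTF1 complex, which is assembled on PTF1A and RBPJL, among other factors. A few of the related genes, among them Cela1, Spink1 and Klk1, are also known to be made in intestinal epithelium.

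Each array held 62976 spots, 59305 of them for genes, and the scanner software marked 49.6% to 55.2% of the probes per array as well above background. No gene spot was saturated. Values are given as log2 of the scanner intensity minus the 75th percentile of the gene probes of the same array, here called scaled log2 values, and they compare arrays for 1 probe, not probes with each other. All 6 arrays lay on 1 slide and were read in 1 scan. The 3 RG@M-γ-CD arrays and PBS replicate 1 lay in row 1 of the slide, and PBS replicates 2 and 3 in row 2, so this row cannot be told apart from these 2 mice. The heat map of the study sets arrays 6, 7 and 8 (RG@M-γ-CD replicates 2 and 3 and PBS replicate 1) beside each other, and arrays 5, 10 and 11 likewise (RG@M-γ-CD replicate 1 and PBS replicates 2 and 3), which differs from the sample labels. The labels were followed here. Markers of intestinal epithelium were present: all 11 genes of the colon epithelium list, among them the mucin Muc2, were well above background on all 6 arrays. So were 8 of the 13 small intestine genes on the array. These lists thus do not separate colon from other parts of the gut.

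The exocrine transcripts were high in 1 PBS mouse. All 10 genes had their highest value on PBS replicate 2, whereas this array was the highest for 15.3% of the 22773 genes that had a value on every array and were well above background on at least 1. All 10 were well above background on PBS replicates 2 and 3, against 3, 3 and 4 genes on RG@M-γ-CD replicates 1, 2 and 3 and 4 genes on PBS replicate 1. PBS replicate 2 lay at least 2 log2 units above every other array for 8 of the 10 genes, the exceptions being Pnlip and Clps, while the share over all genes was 0.659% (150 of 22773). The other 5 arrays each stood out in this way for 69 to 135 genes, none of them one of the 10. PBS replicate 3 in turn lay above all 4 arrays of the RG@M-γ-CD mice and PBS replicate 1 for 6 of the 10 genes (Amy2a5, Cel, Cela2a, Cela3b, Cpa1 and Ctrb1), against 17.5% of all genes.

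**Figure D1:**
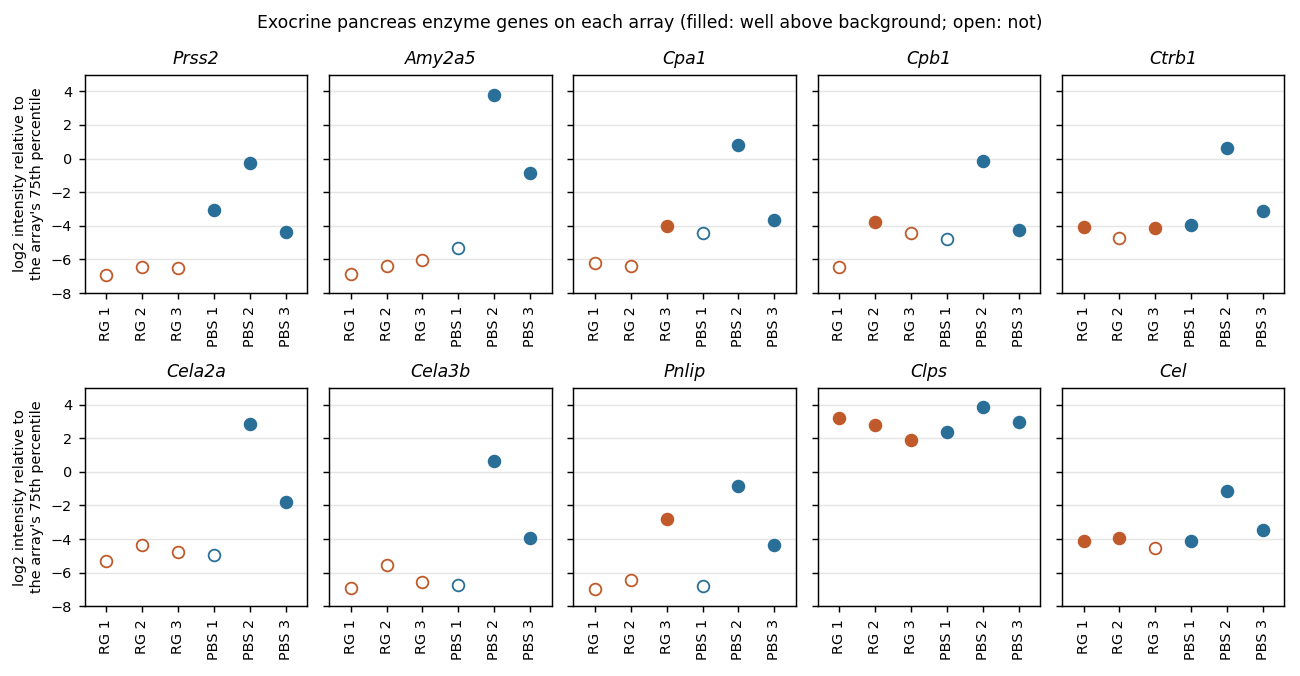
Scaled log2 values of the 10 exocrine pancreas genes on the 6 arrays, each on its brightest probe. Each point is 1 array of 1 mouse, orange for RG@M-γ-CD (RG) and blue for PBS, filled where the probe was well above background. PBS replicate 2 is the highest point in every panel, and only Clps is filled on all 6 arrays.

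The amylase and the proteases stood furthest apart. Amy2a5, a pancreatic alpha-amylase that cuts starch, had scaled log2 values of −6.84, −6.38 and −6.01 with RG@M-γ-CD and of −5.33, 3.78 and −0.84 with PBS. On the scanner's linear scale these were intensities of 4.70, 4.66 and 6.33 against 11, 4410 and 249. PBS replicates 2 and 3 were thus high, and the other 4 arrays were not well above background. The group means were −6.41 ± 0.41 (SD, n = 3) with RG@M-γ-CD and −0.80 ± 4.56 (SD, n = 3) with PBS. With the RG@M-γ-CD arrays raised to the lowest signal well above background on each, the PBS mean was 11.6-fold higher. That fold is not a lower bound, since PBS replicate 1 was kept at its measured value and was not well above background. Set against the highest such limit among the 4 arrays where it was not well above background, Amy2a5 on PBS replicate 2 alone was at least 245-fold higher.

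Amy2a5 was read by the probes A_55_P1996314 (mm9, chr3:113084781-113084840, minus strand), which gave the values above, and A_55_P2139402 (mm9, chr3:113091400-113091459, minus strand). The first shares 23 bases in a row with the probe A_55_P1983418 for Amy1 (mm9, chr3:113258901-113258960, minus strand), the salivary and liver amylase, and the transcripts listed for the second include those of Amy1. The sequences are shown so that this overlap can be seen, with the shared run in capitals, as the array files give them:
Amy2a5 A_55_P1996314: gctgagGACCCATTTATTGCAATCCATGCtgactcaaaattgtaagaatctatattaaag
Amy1 A_55_P1983418: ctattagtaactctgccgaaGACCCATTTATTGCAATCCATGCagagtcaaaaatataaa
Amy2a5 A_55_P2139402: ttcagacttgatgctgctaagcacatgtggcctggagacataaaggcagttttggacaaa
The second Amy2a5 probe had values of −5.93, −6.02 and −6.41 with RG@M-γ-CD and of −6.55, −0.56 and −4.84 with PBS, and was well above background on PBS replicate 2 alone. The Amy1 probe had values of −2.83, −3.19 and −4.32 with RG@M-γ-CD and −3.26, 1.78 and −2.18 with PBS. All 3 probes were highest on PBS replicate 2. On RG@M-γ-CD replicates 1 and 2 and PBS replicate 1, the Amy1 probe was well above background and neither Amy2a5 probe was. The second Amy2a5 probe cannot separate signal from Amy2a5 and Amy1. Hybridisation of either transcript to the other's probe through the shared run was not tested.

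Prss2, an anionic trypsin, was read by 1 probe (A_51_P418901, mm9, chr6:41473937-41473996, plus strand), shown because it was the 1 of the 10 genes that was well above background on every PBS array and on no RG@M-γ-CD array:
Prss2 A_51_P418901: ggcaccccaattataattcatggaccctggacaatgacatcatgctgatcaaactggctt
Its values were −6.93, −6.44 and −6.54 with RG@M-γ-CD and −3.05, −0.28 and −4.34 with PBS. The groups did not overlap, and the PBS mean (−2.56 ± 2.07, SD, n = 3) was at least 3.44-fold above the RG@M-γ-CD mean (−6.64 ± 0.26, SD, n = 3, not well above background on any of the 3 arrays). This sequence shared at most 13 bases in a row with the probe of any other gene on the array. Only probe sequences were compared, so hybridisation of related trypsinogen transcripts to this probe was not tested. Ctrb1, a chymotrypsinogen, had values of −4.07, −4.75 and −4.13 with RG@M-γ-CD and −3.98, 0.61 and −3.10 with PBS. It was well above background on 5 arrays, and its groups did not overlap either, although PBS replicate 1 was only just above the highest RG@M-γ-CD array.

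The elastases and carboxypeptidases had no such separation on PBS replicate 1. Cela2a, a pancreatic elastase, had values of −5.29, −4.37 and −4.77 with RG@M-γ-CD and −4.95, 2.86 and −1.81 with PBS on the probe A_66_P129946. Cela3b, another elastase, had values of −6.93, −5.54 and −6.55 with RG@M-γ-CD and −6.76, 0.66 and −3.93 with PBS. Both were well above background on PBS replicates 2 and 3 and nowhere else, and PBS replicate 1 lay within the range of the RG@M-γ-CD arrays. With the RG@M-γ-CD arrays raised as for Amy2a5, the PBS means were 8.21-fold (Cela2a) and 1.99-fold (Cela3b) higher. The means as measured were −1.30 against −4.81 for Cela2a and −3.34 against −6.34 for Cela3b. Neither fold is a lower bound, since PBS replicate 1 was not well above background. A second Cela2a probe, A_55_P2722025, exceeded background clearly on 0 of the 6 arrays. The Cela3b probe (A_66_P108876, mm9, chr4:136977835-136977894, minus strand) is printed as the example of a transcript seen in row 2 of the slide alone:
Cela3b A_66_P108876: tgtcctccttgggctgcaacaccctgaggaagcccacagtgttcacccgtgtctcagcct
Cpa1, which removes aromatic and aliphatic residues from the ends of peptides, had values of −6.19, −6.37 and −4.04 with RG@M-γ-CD and −4.44, 0.78 and −3.65 with PBS. Cpb1, which removes basic residues, had values of −6.48, −3.78 and −4.40 with RG@M-γ-CD and −4.78, −0.14 and −4.25 with PBS. Each of these carboxypeptidases was well above background on 1 RG@M-γ-CD array as well, Cpa1 on replicate 3 and Cpb1 on replicate 2, and for Cpb1 that array lay above PBS replicate 3.

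The lipid-digesting members were less alike. Pnlip, the pancreatic triglyceride lipase, had values of −6.94, −6.44 and −2.78 with RG@M-γ-CD and −6.78, −0.83 and −4.34 with PBS on the probe A_52_P584279. RG@M-γ-CD replicate 3 thus lay above PBS replicate 3 for Pnlip, with a linear intensity of 59.5 against 180 on PBS replicate 2. The other Pnlip probe, A_51_P520552, was well above background on PBS replicate 2 only. Cel, the bile salt-stimulated lipase, had values of −4.09, −3.94 and −4.53 with RG@M-γ-CD and −4.09, −1.14 and −3.43 with PBS, and was well above background on all arrays but RG@M-γ-CD replicate 3. Clps, colipase, which anchors pancreatic lipase at the fat surface in the presence of bile salts, was the 1 gene well above background on all 6 arrays. Its values were 3.23, 2.76 and 1.91 with RG@M-γ-CD and 2.40, 3.85 and 2.96 with PBS, a range of 1.94 log2 units that was the smallest among the 10, and its groups overlapped.

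Between the labelled groups, the fit across all genes made no call among the 10. Of the 10, 4 could be tested, since the others were not well above background on all 3 arrays of either group. In limma, with Benjamini-Hochberg adjustment over 19090 genes, 0 of these 4 were called, beside 0 of all genes tested (0.0%). The fitted differences, RG@M-γ-CD minus PBS, were −4.08 for Prss2, −2.16 for Ctrb1, −1.30 for Cel and −0.44 for Clps. Nothing is read from this fit about the 4 genes, since their values chose them. In addition, Prss2, Ctrb1 and Cel entered it only through the PBS arrays. Over all genes, 419 (2.19%) had an unadjusted p below 0.05, and the smallest adjusted p in limma was 0.818. The median difference over all 10 genes was −2.58, against −0.013 over all 22773 genes. All but Clps (9 of 10) were at least 2-fold lower with RG@M-γ-CD, against 2.66% of all genes, and the groups did not overlap for 3 of the 10 (Amy2a5, Ctrb1 and Prss2), against 2.27%. These counts include values that were not well above background. For Amy2a5, neither PBS replicate 1 (−5.33) nor the highest RG@M-γ-CD array (−6.01) was well above background. For Ctrb1, the same comparison was −3.98 against −4.07. Without PBS replicate 2 the median over the 10 genes was −0.88, and without PBS replicates 2 and 3, or with the row of the slide as a block, it was −0.10. After normexp background correction, which compresses values near background, it was −1.22. Cpb1 (−0.854), Cel (−0.604) and Pnlip (−0.514) were then less than 2-fold lower, as Clps was.

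Over the 4 arrays of row 1, which hold all RG@M-γ-CD mice and 1 PBS mouse, the direction of the difference was mixed. The RG@M-γ-CD mean minus PBS replicate 1 was −3.59 for Prss2, −1.09 for Cpa1 and −1.08 for Amy2a5. It lay between −0.33 and 0.42 for Ctrb1, Cpb1, Cel, Cela2a, Clps and Cela3b, and was 1.39 for Pnlip, where RG@M-γ-CD replicate 3 was high. With 1 PBS mouse, these values have no spread on that side. Amy2a5, Cela2a and Cela3b were not well above background on any of these arrays. Prss2 was so on PBS replicate 1 alone, Cpa1 and Pnlip on RG@M-γ-CD replicate 3 alone, and Cpb1 on RG@M-γ-CD replicate 2 alone. For these genes the differences thus have no firm size.

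The 2 PBS mice in row 2 differed by a similar factor for most of the genes. PBS replicate 2 exceeded PBS replicate 3 by 25.4-fold for Cela2a, 24.7-fold for Amy2a5, 24.0-fold for Cela3b and 21.7-fold for Cpa1. The excess was 17.2-fold for Cpb1, 16.6-fold for Prss2, 13.08-fold for Ctrb1 and 11.4-fold for Pnlip. Cel differed less, by 4.89-fold, and Clps by 1.85-fold, and these 2 were also the genes above background on the largest numbers of other arrays, together with Ctrb1. Among the 18790 genes well above background on both arrays, the median difference was 0.02 log2 units and the middle 90% lay between −0.52 and 0.55. A difference of at least 3 log2 units was found for 23 genes (0.122%), of which 8 were among the 10 enzymes and 5 were other exocrine genes. The 13 spots of the enzyme probes were scattered over the array, in rows 7 to 377 of 384 and columns 12 to 159 of 164.

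**Figure D2:**
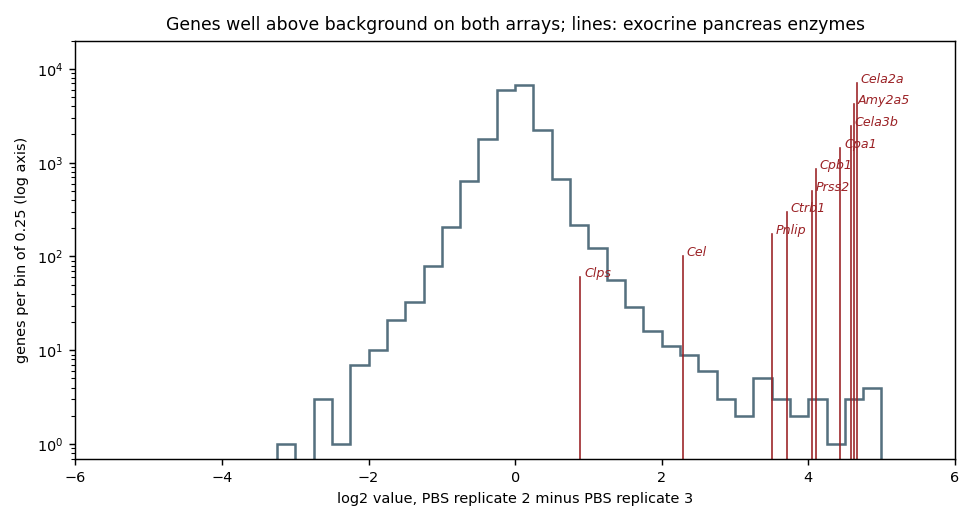
Distribution of the difference in scaled log2 value between PBS replicates 2 and 3 (x axis) over the 18790 genes well above background on both arrays, as genes per bin on a log axis. The red lines mark the 10 exocrine pancreas genes, and their heights carry no value. Of the 10, 8 lie above 3 log2 units, Cel at 2.29 and Clps at 0.89.

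Among other genes of acinar cells, some shared this pattern, some were measured on all arrays and some did neither. Of 30 further exocrine genes listed, 26 had a probe, 20 were well above background on at least 1 array and 12 could be tested, of which 0 were called (11 had a lower and 1 a higher mean with RG@M-γ-CD). Over all 19090 genes tested, 10087 had a lower and 9003 a higher mean. Among the exocrine genes tested, Ctrc, Ctrl, Amy1 and Gp2 entered the fit only through the PBS arrays, which favors a lower mean with RG@M-γ-CD. The median difference over the 26 was −0.76, and −0.34 without PBS replicate 2. Of the 20, 9 had their highest value on PBS replicate 2, and for 6 of these it lay at least 2 log2 units above every other array. Those 6 were the trypsinogens Try4 and Try5, the elastase Cela3a, chymotrypsin C (Ctrc) and the amylases Amy1 and Amy2b. Try5 had values of −6.72, −6.24 and −6.42 with RG@M-γ-CD and −6.55, 2.06 and −2.92 with PBS. Try4 had values of −6.0, −6.40 and −5.51 with RG@M-γ-CD and −5.50, 1.96 and −2.83 with PBS. The trypsinogens are a family of closely related genes, and hybridisation between their transcripts was not tested.

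Ctrc and Cela3a followed the same order of arrays in the PBS group. Ctrc, which the RefSeq table for C57BL/6J lists as a transcribed pseudogene, had values of −6.14, −6.47 and −6.56 with RG@M-γ-CD and −4.29, 0.80 and −4.11 with PBS, and was, like Prss2, well above background on the PBS arrays only. Cela3a had values of −6.84, −6.41 and −6.49 with RG@M-γ-CD and −6.73, 0.67 and −4.13 with PBS. On PBS replicate 2 against PBS replicate 3, Try5 was 31.6-fold, Ctrc 30.1-fold, Cela3a 27.8-fold, Try4 27.7-fold and Amy1 15.6-fold higher. Amy2b was above background on PBS replicate 2 alone, at −2.20, as was the phospholipase Pla2g1b, at −3.51. The amylase Amy2a4 was above background on PBS replicate 3 alone, at −2.87. The trypsinogen-like Gm10334 lay between −5.05 and −3.15, with its highest value on PBS replicate 2, and Prss3 lay between −4.90 and −3.46, with its highest on RG@M-γ-CD replicate 2. Ctrl, a chymotrypsin-like protease, was highest on PBS replicate 1 (−2.03) and at −2.35 on PBS replicate 2.

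**Figure D3:**
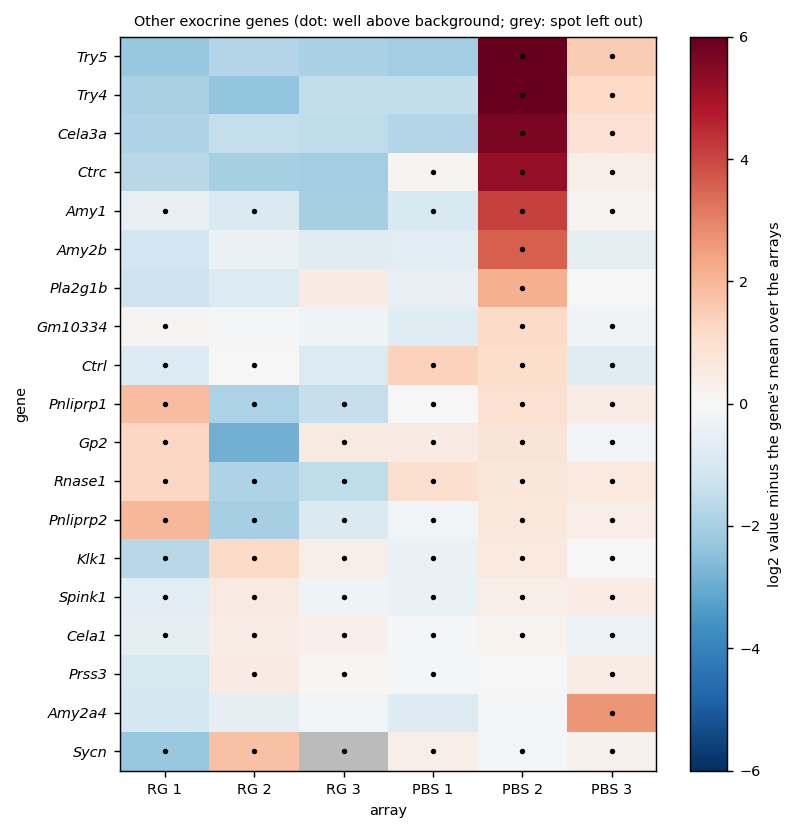
Further exocrine genes well above background on at least 1 array (19 rows) on the 6 arrays (columns), colored by the log2 value minus the mean of the gene over the arrays, with a dot where the probe was well above background and grey where an outlier spot was left out. The upper rows are high on PBS replicate 2 and, less so, on PBS replicate 3, whereas Pnliprp1 and Pnliprp2 are highest on RG@M-γ-CD replicate 1.

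Of the further genes, 8 were well above background on all 6 arrays. Cela1, an elastase also made in intestinal epithelium, lay between 6.02 and 7.0, and Spink1, a trypsin inhibitor, between 6.04 and 7.23. Klk1, a tissue kallikrein, ranged from 4.47 to 7.29. The lipase-related Pnliprp1 had values of 6.41, 2.67 and 3.18 with RG@M-γ-CD and 4.58, 5.47 and 4.97 with PBS, and Pnliprp2 of 4.43, 0.44 and 1.60 against 2.28, 3.09 and 2.83. RG@M-γ-CD replicate 1 was the highest array for both of these and for the ribonuclease Rnase1 (−0.40, against −3.49 to −0.67 elsewhere) and the granule protein Gp2 (−1.14, against −5.25 to −1.60), which was above background on 5 arrays. The granule protein Sycn ranged from 3.35 to 7.40 over the 5 arrays with a usable spot. For each gene named in this group PBS replicate 2 was within the range of the other arrays.

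Transcripts of acinar regulators were mostly near background or highest on another array. Ptf1a, a DNA-binding subunit of PTF1, was well above background on 0 of the 6 arrays, with its highest value on PBS replicate 2 (−4.62, against −6.94 to −6.45 elsewhere). Rbpjl, its acinar partner subunit, was above background on RG@M-γ-CD replicate 1 alone. Its highest values were on RG@M-γ-CD replicates 1 and 2 (both −4.54). Of the 12 genes in the regulator list, 8 were well above background on at least 1 array, 7 could be tested, 0 were called, and PBS replicate 2 was the highest array for 1 of the 8, the protein disulfide isomerase Pdia2. Pdia2 ranged from −5.24 on RG@M-γ-CD replicate 2 to −1.86 on PBS replicate 2. The nuclear receptor Nr5a2, also made in the crypts of the intestine, ranged from −1.19 to 2.19 and was highest on RG@M-γ-CD replicate 2.

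Markers of the endocrine pancreas were read in the same way. Of 12 islet genes, 6 were well above background on at least 1 array, and for 0 of these 6 was PBS replicate 2 the highest array. The insulin genes Ins1 and Ins2 were well above background on 0 of the 6 arrays. The hormones glucagon (Gcg, −0.67 to 2.51) and pancreatic polypeptide (Ppy, −2.51 to 0.66), which had the widest range among the islet genes and are also made by enteroendocrine cells of the gut, were highest on RG@M-γ-CD replicate 2 and lowest on RG@M-γ-CD replicate 1.

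Markers of other organs did not share the size of the excess on PBS replicate 2. Centred on each gene's mean over the arrays, the 10 exocrine genes had medians of −2.22, −1.41 and −0.97 on the RG@M-γ-CD arrays and of −0.78, 4.09 and 0.30 on the PBS arrays. The 20 further exocrine genes had a median of 0.92 on PBS replicate 2, and the lists of acinar regulators, islet, colon, small intestine, stomach, liver, adipose tissue and salivary gland had medians between −0.12 and 0.51 there. In the stomach list Tff2, a mucus-stabilising peptide of gastric neck cells, was above background on PBS replicate 2 alone (−2.73, against −6.74 to −5.97 elsewhere), while Atp4a, a subunit of the gastric proton pump, was highest on RG@M-γ-CD replicate 1 (−0.58). In the small intestine list Defa24, a Paneth cell defensin, ranged from 5.61 to 8.84 and Mmp7, which activates such defensins, from 4.65 to 7.74, both lowest on an RG@M-γ-CD array. Neither was called (0 of 8 tested in that list). In the colon list the widest ranges were those of the chloride exchanger Slc26a3 (−2.36 to 3.09) and the water channel Aqp8 (−0.12 to 4.57), both lowest on RG@M-γ-CD replicate 1. In the salivary gland list Aqp5 ranged from −5.10 to −2.48 and Muc19 from −4.66 to −2.79, and in the liver list Alb ranged from −0.73 to 3.34 and Cps1 from −5.02 to −1.69. The part of cells of other organs in the exocrine signal was not tested.

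**Figure D4:**
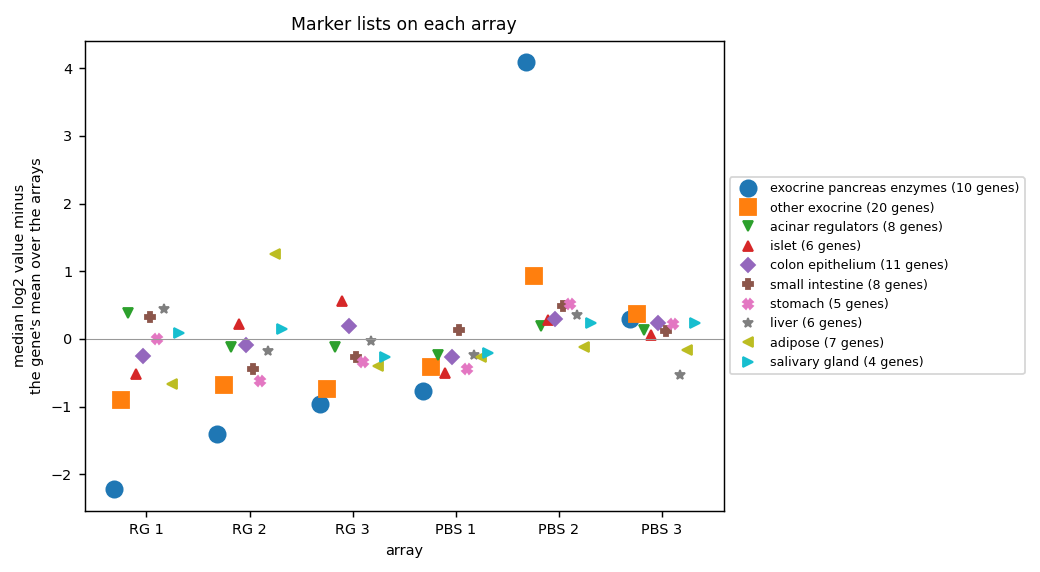
Median, over the genes of each list that were well above background on at least 1 array, of the log2 value minus the gene's mean over the 6 arrays (y axis), by array (x axis), with the number of genes in the key. The 10 exocrine pancreas enzymes lie at 4.09 on PBS replicate 2, the other lists between −0.12 and 0.92.

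Genes outside these lists were ranked by how closely their centred values over the 6 arrays followed the median of the 10 enzymes. The 10 closest of 22689 genes were AY139115, B230206H07Rik, Gm5936, Vmn2r54, DXBay18, Olfr127, Reg2, a transcript named only by its position, Bsnd and 4930544I03Rik, with root mean square distances of 0.54 to 0.77 log2 units, against a median of 2.05 over all genes. Of these, 9 were well above background on 1 array, and 4930544I03Rik on 2, so the likeness of most rests on PBS replicate 2. Reg2, which encodes a secreted protein of the regenerating islet-derived family known from acinar cells, was at −2.65 on PBS replicate 2 and at −5.16 on PBS replicate 3. Its relative Reg1, not among the 10 closest, was at 0.04 on PBS replicate 2 and at −3.88 on PBS replicate 3, a 15.1-fold difference. RG@M-γ-CD replicate 3 (−3.38) and PBS replicate 1 (−3.51) lay above PBS replicate 3 for Reg1. It was well above background on 4 arrays. The likeness was computed over 6 arrays and carries no test.

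The sequences before the start of the enzyme genes were searched for letters known from acinar promoters, since the genes shared their highest array. RefSeq promoters (GRCm38.p6, 250 bases before the start) were at hand for 9 of the 10 genes. The letters TTTCCCA, a core of the TC box read by PTF1, were found on either strand in 5 of the 9 (55.6%: Cel, Cela2a, Cpa1, Ctrb1 and Prss2), against 6.82% of 32851 promoters. The letters CACCTG, a form of the E box, were in 5 of the 9 (55.6%: Cel, Cela2a, Cela3b, Cpb1 and Prss2), against 17.2%. AAGGTCA, a site known for the receptor NR5A2, was in 1 of the 9 (11.1%, Cel), against 4.08%, and CATATG, an E box known for MIST1, in 0 of the 9, against 3.46%. None of the 4 motifs is contained in another, and a match describes the sequence and does not show binding. The 3 promoters with both the TC box letters and the CACCTG E box are printed from RefSeq with these letters in capitals, on the strand of the gene, so a match on the other strand reads TGGGAAA or CAGGTG:
Prss2 (GRCm38.p6, chr6:41521526-41521775, plus strand): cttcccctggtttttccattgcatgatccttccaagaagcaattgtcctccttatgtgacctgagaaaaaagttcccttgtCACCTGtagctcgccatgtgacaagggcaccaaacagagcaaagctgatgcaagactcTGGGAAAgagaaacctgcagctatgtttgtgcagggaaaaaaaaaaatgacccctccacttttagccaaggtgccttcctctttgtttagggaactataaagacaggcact
Cela2a (GRCm38.p6, chr4:141826006-141826255, minus strand): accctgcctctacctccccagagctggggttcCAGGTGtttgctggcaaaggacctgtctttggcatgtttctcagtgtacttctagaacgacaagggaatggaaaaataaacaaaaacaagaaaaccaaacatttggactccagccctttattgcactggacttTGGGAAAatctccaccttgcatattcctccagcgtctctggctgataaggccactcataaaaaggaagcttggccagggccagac
Cel (GRCm38.p6, chr2:28563404-28563653, minus strand): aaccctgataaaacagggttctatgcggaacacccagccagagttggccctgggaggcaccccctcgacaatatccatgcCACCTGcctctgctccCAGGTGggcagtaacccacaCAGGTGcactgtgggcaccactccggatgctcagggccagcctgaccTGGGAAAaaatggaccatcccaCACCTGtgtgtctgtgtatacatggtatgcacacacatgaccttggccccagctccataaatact
The TC box letters begin 111 bases before the start in Prss2 (−111), at −85 in Cela2a and at −87 in Cel, and Cel holds CACCTG at 4 places.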

How the data were processed

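Expression was measured on 6 one-color Agilent arrays. The deposited scanner output, made by the authors with Feature Extraction 10.7.1.1, gives a processed intensity per spot after background correction, without normalization between arrays, and probe positions in mm9. The authors' table of log2 values, quantile-like in that all columns share 1 distribution, was used as an alternative. The members and gene lists were chosen with earlier results of these data known.

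Intensities were read with Python 3.11.15 and pandas 2.3.3. Control and outlier spots were left out, and log2 values were scaled to the 75th percentile of each array. A probe with the scanner's mark on at least 0.5 of its spots counted as well above background. Named genes were every member, the further exocrine genes above background on at least 1 array, the 2 genes of widest range in each other list and the 10 genes closest to the members' median profile. Reg1, Ptf1a, Rbpjl, Muc2, Ins1, Ins2, Ms4a1, Fcmr and Glycam1 were added after their values were seen. A gene of the further exocrine list is counted but not reported here. A gene was described by its brightest probe. Probes with that mark on all 3 arrays of either group were tested with limma 3.58.1 in R 4.3.3, at an adjusted p of 0.05, and the fit was tested on simulated data. Of the gene probes, 58.3% were named through their accession in the RefSeq table. Alternatives were the normalization, background correction, filter, probe rule, t-test, slide row, heat map arrangement and leaving out arrays. The 3 arrays a group limit the precision.

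Replicate numbers in the labels did not pair the samples: deviations of same-numbered arrays correlated at −0.25, −0.23 and 0.14.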

Additional observations from a re-analysis of the deposited data

How the results depend on the processing

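None of the 10 genes was called under any alternative. Over all genes, 0 passed except with the heat map arrangement (5) and in the leave-one-out fits, which gave 0 to 202, the 202 without RG@M-γ-CD replicate 1. With the replicate block, 0 genes passed and the medians stayed at −2.58 for the 10 enzymes and −0.76 for the 26 further exocrine genes. The median of the enzymes was −0.10 with the row of the slide as a block and also with PBS replicates 2 and 3 left out together, an alternative chosen after seeing the data. Leaving out 1 array gave −3.58 to −0.88, normexp background correction −1.22 and the heat map arrangement −1.71. For the further exocrine genes the median was −0.014 with the row as a block, −0.014 without both PBS arrays, −0.85 to −0.34 with 1 array left out and −0.27 after normexp correction. In the fit with the row as a block the differences of Cela2a (0.14), Cela3b (0.42), Clps (0.23) and Pnlip (1.39) were above 0. Prss2 was at −1.28 after normexp correction and at −1.49 in the heat map arrangement. The causes were not tested, except that the block and the left-out arrays remove the PBS mice with the high values. Most values of these genes lay near background outside PBS replicates 2 and 3, where differences between arrays have no firm size.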

Other observations

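Ms4a1, Fcmr and Glycam1, picked after their values were seen, also separated PBS replicate 2 from PBS replicate 3, but in another order of arrays. Among the 23 genes at least 3 log2 units higher on PBS replicate 2, Ms4a1, which encodes the B cell antigen CD20, had values of −0.77, −0.43 and 0.38 with RG@M-γ-CD and of 1.91, 0.85 and −2.16 with PBS. Fcmr, the Fc receptor for IgM, had values of −0.81, −0.52 and 0.38 with RG@M-γ-CD and of 2.22, 0.95 and −2.56 with PBS. Glycam1, a mucin of high endothelial venules, had values of −2.0, −1.11 and −0.54 with RG@M-γ-CD and of 0.93, −0.04 and −3.44 with PBS. All 3 were highest on PBS replicate 1 and lowest on PBS replicate 3, whereas 8 of the 10 exocrine enzymes, in the same set of 23 genes, were highest on PBS replicate 2.

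Adipose markers stood apart on another array. Of 8 listed genes, 7 were well above background on RG@M-γ-CD replicate 2 and 4 on each of the other 5 arrays. Cfd, the adipocyte protease adipsin, was at 0.87 on RG@M-γ-CD replicate 2 and at −6.93 to −4.69 on the other arrays, where it was not well above background. Retn, which encodes resistin, was at −2.78 there, and at −6.71 to −5.48 elsewhere.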
